A study of Mus musculus with 22 samples.

Results

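RNA was sequenced from CD4+CD8+ double-positive thymocytes of 4-week-old mice in which E2a had been deleted with Lck-Cre, and was set against the same cells of mice with the floxed alleles alone. The comparison held 6 of the 22 libraries of the series: 3 from LckCre E2aF/F mice, called knockouts here, and 3 from E2aF/F mice, called controls. They were taken by their labels, as the columns of the table of the Lck groups. All 6 came from thymus, were sorted as CD45.1+ CD4+CD8+ cells and had no treatment. No Cre is named in the genotype of the controls, so the presence of Cre and the loss of E2a cannot be told apart. Which Lck promoter drove Cre is not stated in the labels, and neither is whether each library was 1 animal, so a p-value here weighs a difference against the scatter of 3 and 3 libraries, which may be technical. Set beside them below are 3 VavCre E2aF/F and 3 E2aF/F libraries at 4 weeks, 3 VavCre E2aF/F and 3 E2aF/F libraries at 8 weeks, and 4 libraries of VavCre E2aF/F mice that were sublethally irradiated, given wild-type competitor cells and analysed 4 weeks later, all through the same gate.

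E2a, gene symbol Tcf3, encodes E proteins, basic helix-loop-helix transcription factors that pair with one another or with the relatives Tcf12 (HEB) and Tcf4 (E2-2) and bind the DNA hexamer called an E-box. Id proteins, among them Id2 and Id3, bind E proteins and keep them off DNA. In the thymus E proteins are known for driving pre-T cell receptor alpha and the recombinase genes, and for holding cells at the double-positive stage until the T cell receptor signals. Lck is a kinase gene switched on in developing T cells, whereas Vav is active across blood cell lineages, so Lck-Cre acts later than Vav-Cre.

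Tcf3 itself was measured at 1.33, 1.198 and 1.199 FPKM in the knockout libraries, against 7.505, 8.22 and 6.98 FPKM in the controls. Every knockout library lay below every control library, and the knockout mean was 16.4% of the control mean (log2 change -1.93, SE 0.0724, adjusted p = 0.000608). The value covers the whole gene, so it does not separate deleted from remaining exons. The sorted cells carried the genes of their label: all 10 double-positive markers, such as Cd4, Cd8a, Cd8b1, Rag1 and Rag2, were measured above the minimum, and 0 of the 10 passed the test. Their summed level ranged from 4744 to 4959 FPKM in knockouts and from 5056 to 5258 FPKM in controls. Of other cell types, the summed levels of 15 macrophage and granulocyte, 11 dendritic and 9 erythroid markers reached at most 3.87, 2.43 and 2.24 FPKM in any library. The 15 markers of epithelium, fibroblasts and endothelium summed to between 10.71 and 12.68 FPKM in knockouts and between 10.15 and 10.68 FPKM in controls. Those of innate-like T and NK cells, 15 as well, summed to between 33.38 and 47.41 FPKM in knockouts and between 32.44 and 41.89 FPKM in controls. The 14 B cell markers summed to between 158.5 and 172.5 FPKM in knockouts and between 177.7 and 207.3 FPKM in controls, most of it Ighm, while Pax5, Ms4a1 and Cd22 of the same list were at 0 in all 6 libraries. The 9 double-negative thymocyte markers summed to between 33.6 and 39.1 FPKM in knockouts and between 35.3 and 41.3 FPKM in controls. That sum includes Ptcra, which was called lower, so it does not show the other members. Of the 4 tested members 3 had positive changes, with a median of 0.15, and 0 were called higher. The libraries differed in depth. The reads inferred from the lowest values came to 13.96, 5.43 and 15.31 M in knockouts 1, 2 and 3 (M, 1e6 reads), and to between 14.62 and 16.41 M in controls. Knockouts 2 and 3 had 16.6% and 14.2% of all FPKM in 10 genes, led by the small noncoding RNA gene Gm23935, against 8.02% in knockout 1 and between 7.65% and 10.4% in controls. Knockout 3 was female and the other 5 libraries male by Xist and Ddx3y. The part of depth, of Gm23935 and of sex in the results was not tested beyond the values given.

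Of the genes called changed, the start regions of 2 that fell and 2 that rose show what lies at their promoters. They are Epha2, which had the largest fall with every library above 0, Ptcra, the gene of pre-T cell receptor alpha, and Reep1 and Cyth4, the largest rises other than a receptor segment. The sequences are RefSeq's on GRCm38.p6, run from 250 bases before to 50 bases after the gene's annotated start, and are written 5′ to 3′ on the gene's strand. Capitals mark the E-box hexamers CAGCTG and CAGGTG, the last also as its reverse complement CACCTG.
Epha2, chr4:141300971-141301270, plus strand: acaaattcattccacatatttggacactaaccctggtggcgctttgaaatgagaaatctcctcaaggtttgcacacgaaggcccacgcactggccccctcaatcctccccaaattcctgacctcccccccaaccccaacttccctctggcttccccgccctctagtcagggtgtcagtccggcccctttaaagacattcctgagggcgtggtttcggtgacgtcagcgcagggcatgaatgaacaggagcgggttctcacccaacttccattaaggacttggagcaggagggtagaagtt
Ptcra, chr17:46763663-46763962, minus strand: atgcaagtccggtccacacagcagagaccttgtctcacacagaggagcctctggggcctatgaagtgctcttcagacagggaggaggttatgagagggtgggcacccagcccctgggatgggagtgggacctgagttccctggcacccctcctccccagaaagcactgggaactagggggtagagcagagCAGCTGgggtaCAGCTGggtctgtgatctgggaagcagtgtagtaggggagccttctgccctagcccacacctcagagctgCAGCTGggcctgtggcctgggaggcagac
Reep1, chr6:71707431-71707730, plus strand: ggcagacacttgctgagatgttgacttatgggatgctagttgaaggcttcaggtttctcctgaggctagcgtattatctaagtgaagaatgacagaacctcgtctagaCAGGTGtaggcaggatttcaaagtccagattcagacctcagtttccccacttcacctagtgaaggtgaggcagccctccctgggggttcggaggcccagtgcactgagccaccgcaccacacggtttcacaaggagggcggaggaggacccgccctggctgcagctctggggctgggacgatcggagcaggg
Cyth4, chr15:78596797-78597096, plus strand: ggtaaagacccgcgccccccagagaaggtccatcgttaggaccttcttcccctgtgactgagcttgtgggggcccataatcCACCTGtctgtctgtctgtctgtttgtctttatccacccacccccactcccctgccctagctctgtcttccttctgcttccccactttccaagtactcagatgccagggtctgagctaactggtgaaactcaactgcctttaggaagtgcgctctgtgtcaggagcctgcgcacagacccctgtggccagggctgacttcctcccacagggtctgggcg
The Ptcra region held 3 copies of CAGCTG, at 60 and 49 bases before the start and 21 bases after it. Reep1 had CAGGTG at 142 bases before the start, Cyth4 had CACCTG at 169 bases before it, and the Epha2 region held neither hexamer. Over both strands, 17 of the 58 lower genes with a promoter entry held at least 1 of these hexamers, which is 29.3%, as did 4 of 14 higher genes, or 28.6%. Of 7655 tested genes with an entry 27.4% held 1, and of all 18851 promoters 31.9%, so the share among the changed genes was near that of genes at large.

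Between the Lck-Cre knockouts and the controls 110 genes were called changed. Of 43430 genes, 10946 reached 1 FPKM in at least 3 of the 6 libraries and were tested with limma on log2(FPKM + 1), and a gene with a Benjamini-Hochberg adjusted p under 0.05 is called changed. Called lower were 88 genes, or 0.804% of those tested, and called higher were 22, or 0.201%. Scaled to the same FPKM sum in every library, the split was 88 lower and 6 higher, with 76 of the falls and 6 of the rises above among them. Those sums include Gm23935, at 22950 and 18530 FPKM of 233200 and 226700 FPKM in knockouts 2 and 3. Median-of-ratios scaling gave 98 lower and 13 higher, holding 88 of the falls and 13 of the rises. Quantile normalization gave 98 lower and 19 higher, holding 86 and 19. The median fall was -0.71 and the median rise 0.43 on the log2 scale, while the median over all tested genes was 0.016 and 80% of the genes lay between -0.17 and 0.19. A change of 1 or more was reached by 11 of the falls and 0 of the rises. The 2 groups did not overlap at any of the 110 called genes, nor at 20.0% of all tested genes, of which 1285 were higher and 905 lower in the knockout. Of the called genes, 9 falls and 1 rise reached 1 FPKM in 1 group only, as did 67 of all tested genes. These were tested only through the group where they are high, so their calls are favoured by the minimum and are not used as support. At an unadjusted p under 0.05 there were 650 lower and 853 higher genes. In bulk RNA, fewer cells of a type and less RNA per cell cannot be told apart.

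How firmly a gene is called depends on single libraries in a design of 3 against 3. Leaving out knockout 1, 2 or 3 gave totals of 72, 23 and 31 lower and 11, 1 and 1 higher genes, among which were 51, 20 and 28 of the 88 falls and 6, 1 and 0 of the 22 rises. Leaving out control 1, 2 or 3 gave totals of 2, 15 and 4 lower and 0, 1 and 1 higher genes, all of the lower and 0 of the higher ones being among those 110. Epha2 and Tcf3 were called in each of these 6 fits, and 41 of the 110 genes in 0 of them. The called genes are grouped below by what their products are known to do, a grouping made after the calls and not tested. The libraries whose omission ended a call are given with the adjusted p without them, and the direction of every called gene was the same in every such fit that tested it.

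**Figure D1:**
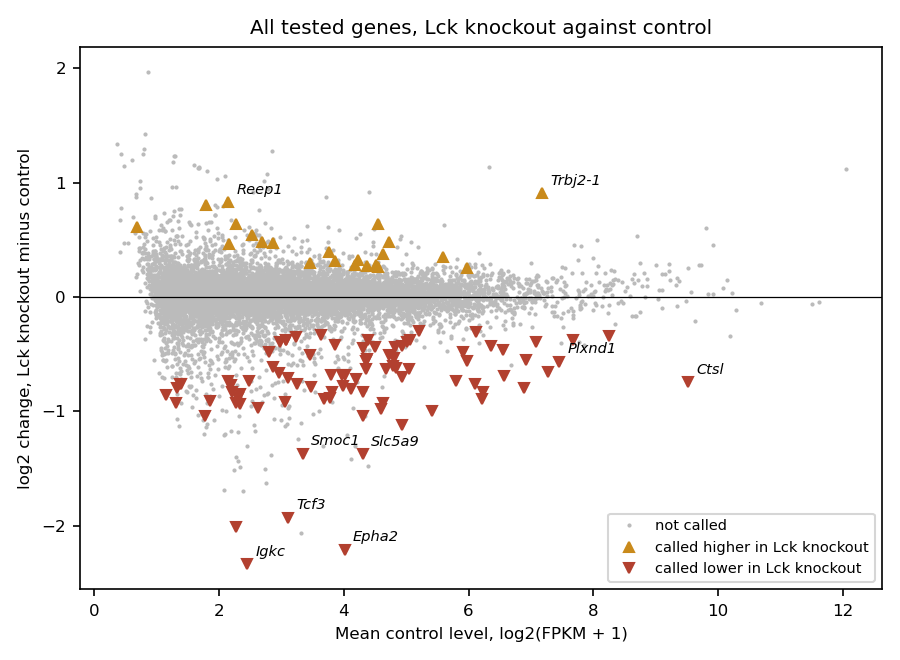
Change of every tested gene (log2 of FPKM + 1, Lck knockout minus control, vertical) against its mean level in the controls (horizontal, log2 of FPKM + 1), with called genes as coloured triangles. The 88 called falls reach further from 0 than the 22 called rises, and genes listed at 0 in every library of a group are not drawn.

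Surface receptors and guidance molecules were among the genes that fell. Epha2, a receptor tyrosine kinase for ephrin-A ligands, was at 2.39, 2.25 and 2.81 FPKM in the knockout libraries, against 15.3, 15.97 and 14.1 FPKM in the controls. The knockout mean was 16.4% of the control mean, the lowest share of any called protein-coding gene but Tcf3 (log2 change -2.21, SE 0.0791, adjusted p = 0.000608). It was the only called member of the 3 Eph receptors and ephrins that were tested, against 0.804% of all tested genes called lower. Ephb6, a kinase-dead relative at a far higher level, measured 128, 119.9 and 114 FPKM in knockouts, against 121, 115 and 121 FPKM in controls (log2 change 0.0148, adjusted p = 0.946). The ligand gene Efna4 overlapped between groups (log2 change 0.11, adjusted p = 0.877). Plxnd1, the receptor for semaphorin 3E that guides thymocytes from cortex to medulla, fell to 119.5, 115 and 118 FPKM in knockouts, against 175, 179 and 169 FPKM in controls (log2 change -0.57, SE 0.0413, adjusted p = 0.0102). The 2 ranges were far apart. The call of Plxnd1 ended without control replicate 1 (0.0742) and control replicate 3 (0.0626). Sema7a, a membrane-anchored semaphorin, had 12.1, 14.2 and 12.6 FPKM in knockouts, against 20.1, 18.7 and 19.8 FPKM in controls (log2 change -0.56, SE 0.0654, adjusted p = 0.0226). Sema7a was called in 1 of 6 left-out fits (adjusted p 0.0426 to 0.124). Plxnd1 and Sema7a were the 2 called of 9 tested semaphorins, plexins and neuropilins, against 0.804% of all tested genes called lower. The median change of the 9 was -0.19. The neuropilin Nrp1 (log2 change -0.20, adjusted p = 0.323) and the semaphorin Sema4d (log2 change -0.19, adjusted p = 0.104) were not called.

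Other surface and secreted molecules fell as well. Adgrg1, the adhesion G protein-coupled receptor GPR56, stood at 9.404, 9.01 and 8.201 FPKM in knockouts, against 16.1, 16.6 and 15.9 FPKM in controls (log2 change -0.80, SE 0.05703, adjusted p = 0.0102). Its call was lost without control replicate 1 (0.0742) and control replicate 3 (0.0626). Cd200, the ligand of an inhibitory receptor on myeloid cells, stood at 16.1, 17.6 and 18.7 FPKM in knockouts, against 24.2, 25.3 and 26.5 FPKM in controls (log2 change -0.51, SE 0.0658, adjusted p = 0.0292). Of the left-out fits, 0 of 6 called it (adjusted p 0.0508 to 0.129). Smoc1, a secreted calcium-binding matrix protein, had 3.401, 3.604 and 1.94 FPKM in the knockout libraries, against 8.19, 9.03 and 10.2 FPKM in the controls. Its lowest control was above the highest knockout, and 32.7% of the control mean was left (log2 change -1.37, SE 0.182, adjusted p = 0.0319). The Smoc1 call ended without knockout replicate 1 (0.0609), knockout replicate 2 (0.0777), control replicate 1 (0.124), control replicate 2 (0.139) and control replicate 3 (0.126). Wnt8b, a Wnt ligand, measured 3.23, 3.73 and 3.16 FPKM in knockouts, against 8.25, 5.86 and 7.901 FPKM in controls (log2 change -0.92, SE 0.125, adjusted p = 0.0342). It was called in 1 of 6 left-out fits (adjusted p 0.0428 to 0.148). Tgfbr3, the co-receptor betaglycan, and Cd52, a small lipid-anchored glycoprotein of lymphocytes, had small falls of -0.39 and -0.30 on the log2 scale (adjusted p = 0.0319 and 0.0252), and neither was called in any left-out fit (0.0812 to 0.166 and 0.0643 to 0.131).

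**Figure D2:**
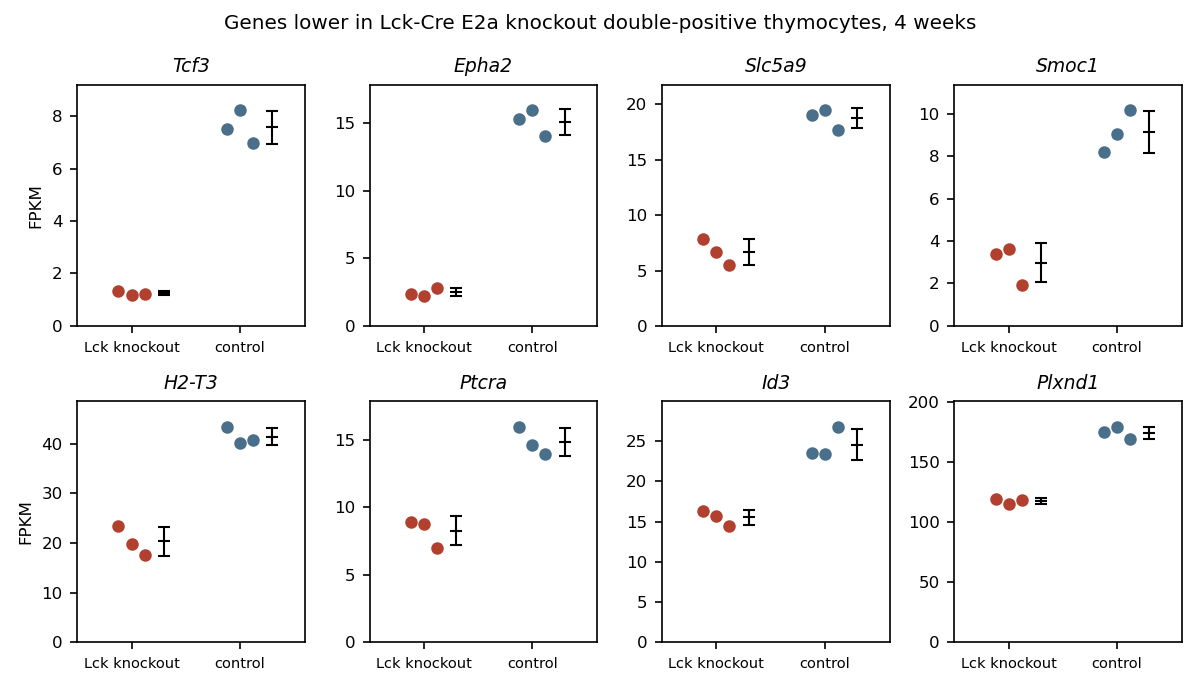
FPKM per library (vertical) of 8 genes called lower, with 3 Lck knockout libraries in red on the left and 3 control libraries in blue on the right of each panel. Black marks give the mean ± SD (n = 3 each), and in every panel all knockout points lie under all control points.

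Of the E proteins and their inhibitors, Id3 was called besides Tcf3. Id3, an inhibitor that E proteins themselves are known to induce, had 16.3, 15.7 and 14.5 FPKM in the knockout libraries, against 23.5, 23.4 and 26.8 FPKM in the controls. All knockouts lay below all controls, and the mean was 63.2% of the control mean (log2 change -0.63, SE 0.0704, adjusted p = 0.0198). The Id3 call ended without knockout replicate 2 (0.0796), knockout replicate 3 (0.0647), control replicate 1 (0.0995), control replicate 2 (0.0735) and control replicate 3 (0.0732). The partner genes stayed near their control values: Tcf12 had 16.1, 16.95 and 16.8 FPKM in knockouts, against 17.2, 18.1 and 16.9 FPKM in controls (log2 change -0.0628, adjusted p = 0.616). Tcf4 had a log2 change of -0.02997 without a call (adjusted p = 0.9198). Id2 was lower on average, but with overlap, at 5.14, 4.16 and 2.903 FPKM in knockouts, against 6.95, 5.11 and 4.996 FPKM in controls (log2 change -0.41, adjusted p = 0.418). All 5 tested members of this list had negative values.

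Among 20 tested genes of the double-positive stage and of receptor recombination, 3 fell and 0 rose, against 0.804% and 0.201% of all tested genes. Ptcra, whose product pairs with the beta chain before the alpha chain is made, was at 8.95, 8.81 and 7.03 FPKM in the knockout libraries, against 15.97, 14.6 and 13.98 FPKM in the controls. The highest knockout was well below the lowest control (log2 change -0.78, SE 0.0976, adjusted p = 0.02697). Its call ended without knockout replicate 1 (0.0506), knockout replicate 2 (0.0796), control replicate 1 (0.128), control replicate 2 (0.123) and control replicate 3 (0.0972). Slc7a11, the cystine and glutamate exchanger, had 5.92, 5.56 and 4.89 FPKM in knockouts, against 9.92, 10.4 and 9.99 FPKM in controls (log2 change -0.79, SE 0.0691, adjusted p = 0.0119). Its call held in 2 of 6 left-out fits (adjusted p 0.0207 to 0.0742). Plxnd1, given above, was the last of the 3. The recombinase genes had lower values without a call: Rag1 measured 892, 897 and 965 FPKM in knockouts, against 1142, 1178 and 1179 FPKM in controls (log2 change -0.35, adjusted p = 0.0536). Rag2 measured 52.8, 48.4 and 50.2 FPKM in knockouts, against 57.7, 61.6 and 64.1 FPKM in controls (log2 change -0.27, adjusted p = 0.103). Neither overlapped between groups. The lineage coreceptor gene Cd8a was at 552, 554 and 550 FPKM in knockouts, against 534, 507 and 545 FPKM in controls (log2 change 0.0628, adjusted p = 0.629). In all, 14 of the 20 had negative changes, with a median of -0.11, against 0.016 over all tested genes. Receptor segments moved too: the alpha variable segments Trav10n and Trav6-5 were called lower (-0.93 and -0.91 on the log2 scale, adjusted p = 0.0282 and 0.0119) and the beta joining segment Trbj2-1 higher (0.91, adjusted p = 0.0342), values that are uncertain one by one because such segments share sequence. They were called in 1 of 6, 3 of 6 and 0 of 6 left-out fits (adjusted p 0.0428 to 0.148, 0.0255 to 0.0742 and 0.0626 to 0.143).

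Transcription factors other than E proteins accounted for a few falls. Of 22 tested core factors of thymocytes, 3 fell and 0 rose, against 0.804% and 0.201% of all tested genes. Ikzf3, the zinc finger factor Aiolos, stood at 41.7, 43.4 and 39.3 FPKM in knockouts, against 58.8, 67.5 and 58.3 FPKM in controls (log2 change -0.56, SE 0.0707, adjusted p = 0.0282). Ets2 was at 89.2, 75.3 and 80.3 FPKM in knockouts, against 119, 126 and 115 FPKM in controls (log2 change -0.56, SE 0.0715, adjusted p = 0.0292). E2f2, an activator of S phase genes, was at 103, 103 and 101.2 FPKM in knockouts, against 139, 133 and 133 FPKM in controls (log2 change -0.40, SE 0.0376, adjusted p = 0.0149). The knockout means of Ikzf3, Ets2 and E2f2 were 67.4%, 67.9% and 75.8% of the control means, with no overlap. Ikzf3 was called in 0 of 6 left-out fits, Ets2 in 1 of 6 and E2f2 in 1 of 6, with adjusted p of 0.0689 to 0.114, 0.0287 to 0.144 and 0.0424 to 0.09001. Scaled to the same sum, Ets2 was not called (adjusted p = 0.0601), while it was called with median-of-ratios scaling (0.0231) and quantile normalization (0.0329). The best known factors of the lineage were not called: Tcf7 had 1124, 1139 and 1170.0 FPKM in knockouts, against 1073, 1088 and 1094 FPKM in controls (log2 change 0.0764, adjusted p = 0.549). Bcl11b had a log2 change of -0.0897 (adjusted p = 0.556), and Myb one of -0.0791 (adjusted p = 0.463). Outside that list, Xbp1, the factor of the unfolded protein response, was at 18.3, 16.9 and 18.6 FPKM in knockouts, against 29.05, 30.7 and 29.2 FPKM in controls (log2 change -0.70, SE 0.0505, adjusted p = 0.0102). It lost its call without control replicate 1 (0.0742) and control replicate 3 (0.0626). It was the 1 called of 22 tested genes of that response, against 0.804% of all tested genes called lower. That set was chosen after the called genes were seen, and its median change was -0.0090. Hspa5, the chaperone BiP, measured 20.8, 19.9 and 21.2 FPKM in knockouts, against 18.4, 20.01 and 20.7 FPKM in controls (log2 change 0.0644, adjusted p = 0.6796). Nr1d1, the circadian repressor REV-ERB alpha, had 2.58, 1.77 and 2.09 FPKM in knockouts, against 5.41, 5.02 and 4.95 FPKM in controls (log2 change -0.97, SE 0.103, adjusted p = 0.0173). The left-out fits that called it were 1 of 6 (adjusted p 0.0207 to 0.102). Its close relative Nr1d2 had 10.9, 11.4 and 10.1 FPKM in knockouts, against 15.5, 17.2 and 14.3 FPKM in controls and an adjusted p at the threshold (log2 change -0.50, adjusted p = 0.05003, not called).

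Some of the falls were genes of signalling inside the cell, picked from the called genes. Dusp4, a phosphatase of MAP kinases, measured 8.305, 9.25 and 8.72 FPKM in knockouts, against 15.2, 14.02 and 14.7 FPKM in controls (log2 change -0.68, SE 0.0548, adjusted p = 0.0108). That call ended without control replicate 1 (0.0742) and control replicate 3 (0.0726). Syk, the kinase related to Zap70, measured 1.58, 1.58 and 1.89 FPKM in knockouts, against 3.52, 3.67 and 3.55 FPKM in controls (log2 change -0.77, SE 0.0719, adjusted p = 0.0144). It was called in 2 of 6 left-out fits (adjusted p 0.0342 to 0.09001). Inpp5d, the lipid phosphatase SHIP1, measured 3.86, 3.99 and 4.06 FPKM in knockouts, against 6.23, 5.78 and 5.78 FPKM in controls (log2 change -0.48, SE 0.0519, adjusted p = 0.0178). It was called in 0 of 6 left-out fits (adjusted p 0.0508 to 0.1098). Dgke, a kinase of diacylglycerol, was at 6.91 ± 0.348 FPKM in knockouts and 13.1 ± 0.869 FPKM in controls (SD, n = 3 each; log2 change -0.83, adjusted p = 0.0102). Dgke was called in 4 of 6 left-out fits (adjusted p 0.0207 to 0.0724). Itpr1, the calcium release channel that opens on inositol trisphosphate, was at 18.3 ± 0.916 FPKM in knockouts and 26.9 ± 1.05 FPKM in controls (SD, n = 3 each; log2 change -0.53, adjusted p = 0.0172). The left-out fits that called it were 2 of 6 (adjusted p 0.0369 to 0.0818). The receptor itself was not among the changes: of 25 tested genes of the T cell receptor complex and its proximal signalling 0 were called, with changes between -0.17 and 0.19, and of 24 genes that respond to the receptor during positive selection 0 were called. Their nearest to a call was the tetraspanin gene Cd53, at 22.3, 16.8 and 19.2 FPKM in knockouts, against 12.4, 13.2 and 11.4 FPKM in controls (log2 change 0.61, adjusted p = 0.0738). The inhibitory receptor gene Cd5 stood at 111, 99.2 and 108 FPKM in knockouts, against 136, 118 and 129.5 FPKM in controls (log2 change -0.27, adjusted p = 0.178).

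Other falls were genes of enzymes, transporters and the cytoskeleton. Slc5a9, a sodium-coupled transporter of mannose and glucose, was at 7.83, 6.66 and 5.49 FPKM in the knockout libraries, against 19.1, 19.5 and 17.7 FPKM in the controls. The knockout mean was 35.5% of the control mean (log2 change -1.38, SE 0.113, adjusted p = 0.0108). The call ended without control replicate 1 (0.0742), control replicate 2 (0.0542) and control replicate 3 (0.06898). It was the 1 called of 19 tested genes of glucose transport and glycolysis, against 0.804% of all tested genes called lower. The median change of the 19 was 0.0055. Ctsl, the lysosomal protease cathepsin L and the called gene with the highest FPKM in controls, fell to 407, 442 and 462 FPKM in knockouts, against 712, 708 and 781 FPKM in controls (log2 change -0.75, SE 0.06903, adjusted p = 0.0144). Cathepsin L lost its call without knockout replicate 2 (0.0621), control replicate 1 (0.0847), control replicate 2 (0.05695) and control replicate 3 (0.0726). Mprip, which tethers myosin phosphatase to actin, had 12.4, 12.5 and 11.2 FPKM in knockouts, against 23.8, 23.2 and 24.1 FPKM in controls (log2 change -0.92, SE 0.0524, adjusted p = 0.00519). That call ended only without control replicate 1 (0.0724). Of retinol metabolism, in a set of 10 tested genes chosen after the called genes were seen, 2 fell and 0 rose. The shares over all tested genes were 0.804% and 0.201%. The set's median change was -0.016, with 4 of the 10 positive. Rdh10, which oxidises retinol to retinal, had 14.4, 10.2 and 9.67 FPKM in knockouts, against 25, 23.5 and 21.1 FPKM in controls (log2 change -0.98, SE 0.148, adjusted p = 0.0487). Dhrs3, which reduces retinal to retinol, had 11.1, 10.2 and 9.02 FPKM in knockouts, against 18.6, 18.8 and 18.7 FPKM in controls (log2 change -0.83, SE 0.0723, adjusted p = 0.0119). Rdh10 was called in 1 of 6 left-out fits and Dhrs3 in 2 of 6 (adjusted p 0.0181 to 0.206 and 0.0181 to 0.0742). Scaled to the same sum, Rdh10 was not called (adjusted p = 0.0675), while it was called with median-of-ratios scaling (0.0374) and quantile normalization (0.0414).

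In 2 further families, both chosen after the called genes were seen, some members fell. Of 16 tested MHC class I genes, 3 non-classical ones fell and 0 rose, against 0.804% and 0.201% of all tested genes, and the family's median change was -0.12. H2-T3, the gene of the thymus leukaemia antigen that binds CD8 alpha, had 23.4, 19.9 and 17.6 FPKM in the knockout libraries, against 43.4, 40.1 and 40.8 FPKM in the controls, which left 49.1% of the control mean (log2 change -1.001, SE 0.101, adjusted p = 0.0172). H2-T10 had 61.4, 57.9 and 53.7 FPKM in knockouts, against 100.3, 83.5 and 97.3 FPKM in controls (log2 change -0.69, SE 0.0853, adjusted p = 0.0259). H2-T22 had 12.7, 11.9 and 11.6 FPKM in knockouts, against 20.6, 17.2 and 20.2 FPKM in controls (log2 change -0.63, SE 0.0768, adjusted p = 0.02503). Both are ligands of some gamma-delta T cell receptors in mice. Reads may be shared among these 3 related genes, which was not measured, so their values are uncertain one by one. They were called in 2 of 6, 1 of 6 and 1 of 6 left-out fits (adjusted p 0.0159 to 0.0995, 0.0436 to 0.124 and 0.0428 to 0.123). The other 13, among them the classical genes H2-K1 (log2 change -0.0628, adjusted p = 0.672) and H2-D1 (log2 change 0.19, adjusted p = 0.259), lay between -0.39 and 0.19 on the log2 scale. Of 21 tested voltage-gated channels, sodium pump subunits and inositol trisphosphate receptors, 6 fell and 0 rose, against 0.804% and 0.201% of all tested genes. Their median was -0.066, with 9 of the 21 positive. Among them were the sodium channel beta subunits Scn4b (-0.68) and Scn2b (-0.51), Itpr1, the sodium pump subunit Atp1b1 (-0.43) and the potassium channel Kcnh2 (-0.33), with adjusted p between 0.0172 and 0.0361. Scn2b and Kcnh2 were called in 0 left-out fits, Scn4b and Atp1b1 in 1 each, and scaled to the same sum Kcnh2 was not called (adjusted p = 0.0605). With median-of-ratios scaling and quantile normalization Kcnh2 was called (0.0288 and 0.0344). The highest values of the family were those of Kcnk5 and Cacnb3 (log2 changes 0.52 and 0.39, adjusted p = 0.05835 and 0.08889), which did not overlap between groups and were not called.

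Some of the falls lay side by side in the genome. Of 86 called falls with a position, 20 were within 100 kb of another called fall, or 23.3%, while 280 of 10865 tested genes, or 2.58%, were within 100 kb of a called fall. Of 22 rises, 2 were that close to another rise. On mm10 by the GENCODE annotation, these pairs and groups included Id3 and E2f2 on chromosome 4, Tctex1d1, BB031773, Wdr78 and Mier1 also on chromosome 4, Scn2b and Scn4b on 9, Ctsl and Cdk20 on 13, H2-T22, H2-T10 and H2-T3 on 17, Agfg2 and Nyap1 on 5, and Dgke, Dgkeos and Gm525 on 11. Dgkeos overlaps Dgke, BB031773 overlaps Tctex1d1 and Wdr78 overlaps Mier1, so reads of these partners cannot be told apart where counting did not use strand, which is not stated. The kinase gene Cdk20 had 32.04, 32.2 and 32.6 FPKM in knockouts, against 58.6, 50.2 and 55.3 FPKM in controls (log2 change -0.74, SE 0.0607, adjusted p = 0.0108), a fall of the size of its neighbour Ctsl, and lost its call without knockout replicate 2 (0.0504), control replicate 1 (0.0724) and control replicate 3 (0.0726).

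Of the genes that reached the minimum in the controls only, Igkc and Mir7211 are given by their values, with no test. Igkc, the kappa light chain constant gene, was listed at 0, 0 and 0.204 FPKM in knockouts, against 3.19, 4.93 and 5.28 FPKM in controls. Of the B cell markers 5 of 14 were tested, among them Ighm at 149, 159 and 162 FPKM in knockouts, against 179, 164 and 191 FPKM in controls (log2 change -0.18, adjusted p = 0.314) and Cd79b at 3.88, 3.402 and 5.72 FPKM in knockouts, against 5.77, 4.97 and 6.16 FPKM in controls (log2 change -0.33, adjusted p = 0.446). Of the 5 tested markers 4 had negative changes. The 1 positive change was 0.38 on the log2 scale, without overlap between groups and without a call. The part of B cells, whose summed markers are given above, in the Igkc value was not tested. The microRNA gene Mir7211 (chromosome 10, 94586137 to 94586199, minus strand, within Tmcc3 and overlapping its antisense gene) was listed at 0 in all 3 knockout libraries, against 5.12, 3.89 and 2.17 FPKM in controls. Its mature 5p strand in RefSeq, with the seed of bases 2 to 8 in capitals, reads as follows.
mmu-miR-7211-5p: uCUUUCCCucugccacuccacc
The FPKM value is that of the whole gene and says nothing of the mature strand.

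Genes that rose did so by less in the median, 0.43 against -0.71 for the falls on the log2 scale. Reep1, which shapes tubules of the endoplasmic reticulum, was at 7.01, 5.9 and 7.85 FPKM in the knockout libraries, against 3.63, 3.2 and 3.46 FPKM in the controls. The lowest knockout was above the highest control (log2 change 0.83, SE 0.0996, adjusted p = 0.0246). The call ended without knockout replicate 1 (0.0673), knockout replicate 3 (0.0593), control replicate 1 (0.111), control replicate 2 (0.115) and control replicate 3 (0.101). Cyth4, an exchange factor for ARF GTPases, was at 4.55, 5.42 and 5.12 FPKM in the knockout libraries, against 2.401, 2.59 and 2.37 FPKM in the controls, about double (log2 change 0.80, SE 0.0726, adjusted p = 0.0135). The Cyth4 call ended without knockout replicate 2 (0.0504), knockout replicate 3 (0.0561), control replicate 1 (0.08699), control replicate 2 (0.0547) and control replicate 3 (0.0742). Tmem173, the gene of the DNA sensing adaptor STING, was at 6.33, 6.65 and 6.49 FPKM in the knockout libraries, against 4.003, 3.57 and 3.91 FPKM in the controls (log2 change 0.64, SE 0.0557, adjusted p = 0.0119). That call ended without knockout replicate 2 (0.0552), knockout replicate 3 (0.0536), control replicate 1 (0.0742), control replicate 2 (0.0531) and control replicate 3 (0.0726). It was the 1 called of 8 tested genes of cytosolic DNA and RNA sensing, against 0.201% of all tested genes called higher. The adaptor Myd88 came next in that list (log2 change 0.21, adjusted p = 0.242). Of 38 tested genes of actin, tropomyosin, septins and small GTPase regulators, 3 were called higher and 0 lower, against 0.201% and 0.804% of all tested genes. Beside Cyth4, they were Tpm4, a tropomyosin of actin filaments, at 36.2, 36.1 and 33.3 FPKM in knockouts, against 24.8, 20.9 and 21.4 FPKM in controls (log2 change 0.63, SE 0.0738, adjusted p = 0.0226), and the septin gene Sept8. Sept8 was at 1.53, 1.54 and 1.33 FPKM in knockouts, against 0.6101, 0.598 and 0.621 FPKM in controls, so it was tested only through the knockouts. Its call is counted in the 3 above but is left aside and not used as support. Tpm4 was called in 0 of 6 left-out fits (adjusted p 0.0593 to 0.0979), and was not called when scaled to the same sum (0.0714). With median-of-ratios scaling and quantile normalization it was called (0.0181 and 0.0228). The list's median change was 0.032.

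Of 24 tested genes of mature T cells and thymic exit, 3 rose and 0 fell, against 0.201% and 0.804% of all tested genes. Among the risen, Itgb7, the integrin chain of gut homing, had 7.83, 7.81 and 6.54 FPKM in knockouts, against 5.06, 4.79 and 4.45 FPKM in controls (log2 change 0.54, SE 0.0813, adjusted p = 0.0487). Emp3, a small membrane protein, had 35.2, 37.2 and 35.6 FPKM in knockouts, against 26.2, 24.2 and 26.1 FPKM in controls (log2 change 0.48, SE 0.0475, adjusted p = 0.0172). Emp3 was called in 1 of 6 left-out fits and Itgb7 in none (adjusted p 0.0409 to 0.08699 and 0.0536 to 0.191). Scaled to the same sum, Itgb7 was not called (0.125), while it was called with median-of-ratios scaling (0.0399) and quantile normalization (0.0344). The list had 13 positive and 11 negative members with a median of 0.029, and Il7r, the interleukin 7 receptor, was lower at 1.14, 0.852 and 0.882 FPKM in knockouts, against 1.85, 1.795 and 1.595 FPKM in controls (log2 change -0.49, adjusted p = 0.0915), without a call. Of ganglioside synthesis, 2 enzymes rose and 0 fell, of 12 genes tested in a set chosen after the called genes were seen. The shares over all tested genes were 0.201% and 0.804%. The set as a whole did not lean, with a median change of -0.0068 and 6 of the 12 positive. St8sia1, the synthase of GD3, had 8.76, 9.14 and 9.295 FPKM in knockouts, against 6.54, 6.28 and 5.98 FPKM in controls (log2 change 0.47, SE 0.0503, adjusted p = 0.0176). B4galnt1, the synthase of GM2 and GD2, had 22.6, 22.2 and 22.3 FPKM in knockouts, against 18.1, 16.9 and 18.1 FPKM in controls (log2 change 0.32, SE 0.0427, adjusted p = 0.0313). St8sia1 was called in 1 of 6 left-out fits and B4galnt1 in 0 of 6 (adjusted p 0.0428 to 0.0913 and 0.0805 to 0.132). Neither was called when scaled to the same sum (0.0544 and 0.212). Both were called with median-of-ratios scaling (0.0181 and 0.0362) and quantile normalization (0.0190 and 0.0329). Among 24 chromatin remodelling genes, Chd3, a helicase of the NuRD complex, rose to 7.404, 8.23 and 8.37 FPKM in knockouts, against 5.395, 5.497 and 5.43 FPKM in controls (log2 change 0.48, SE 0.0565, adjusted p = 0.0226). Smarca4, the motor of the SWI/SNF complex, fell to 21.7, 21.7 and 21.8 FPKM in knockouts, against 29.6, 31.9 and 27.4 FPKM in controls (log2 change -0.43, SE 0.0589, adjusted p = 0.0358). Their calls held in 1 of 6 and 0 of 6 left-out fits (adjusted p 0.0262 to 0.127 and 0.0726 to 0.1704), and the other 22 were not called.

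**Figure D3:**
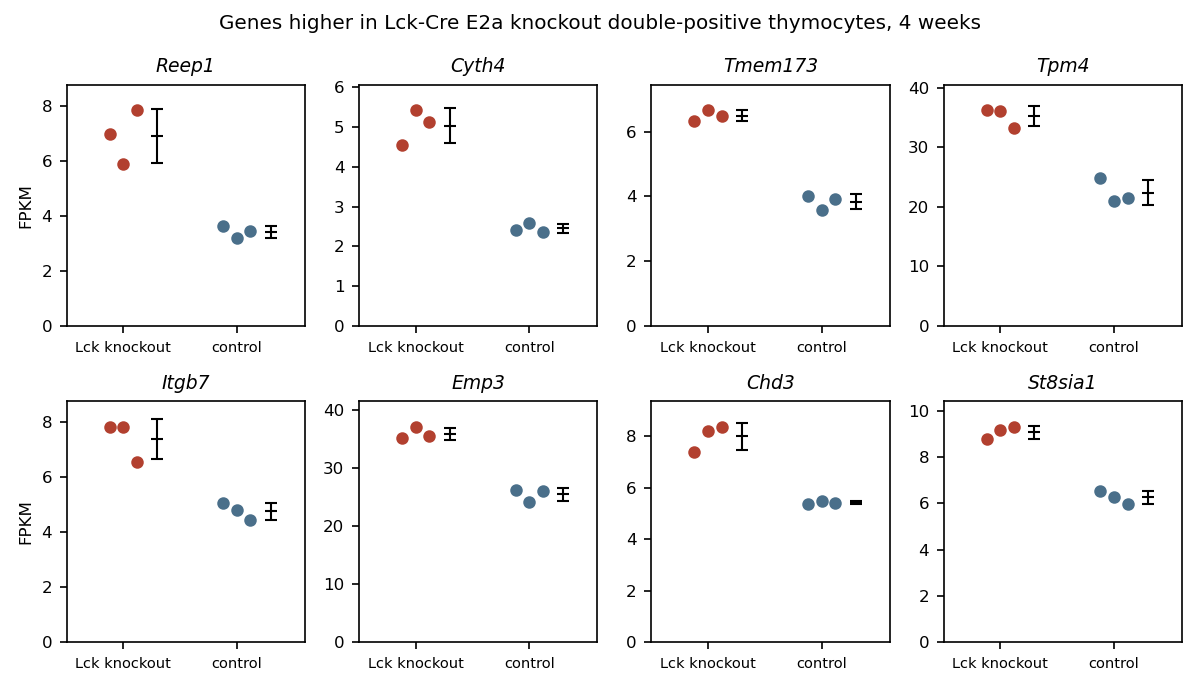
FPKM per library (vertical) of 8 genes called higher, with 3 Lck knockout libraries in red on the left and 3 control libraries in blue on the right of each panel, and the mean ± SD in black (n = 3 each). In every panel all knockout points lie above all control points.

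Cell cycle genes were slightly higher in the knockout libraries as lists, with hardly a call. All 40 S phase genes had positive changes, with a median of 0.17, against 0.016 over all tested genes, and 26 did not overlap between groups, against 20.0% of all tested genes. Their called count was 0. Mcm6, a subunit of the replicative helicase, was at 39.8, 42.5 and 41.05 FPKM in knockouts, against 32.8, 31.8 and 34.9 FPKM in controls (log2 change 0.30, adjusted p = 0.06297). Mcm3, another subunit, was at 28.8, 30.4 and 28.9 FPKM in knockouts, against 24.7, 23.8 and 25.4 FPKM in controls (log2 change 0.24, adjusted p = 0.0789). Of 43 genes of G2 and mitosis, 42 had positive changes with a median of 0.18, 29 did not overlap and 0 were called. Cdc20, which activates the anaphase-promoting complex, was at 49.02, 49.6 and 48.6 FPKM in knockouts, against 40.9, 43.2 and 42.5 FPKM in controls (log2 change 0.21, adjusted p = 0.0806). Cdk1, the mitotic kinase, was at 18.4, 18.8 and 17.7 FPKM in knockouts, against 15.95, 14.7 and 16.2 FPKM in controls (log2 change 0.22, adjusted p = 0.139). By library, the median of the S phase genes relative to the control mean was 0.154, 0.163 and 0.153 in knockouts and 0.00276, -0.0461 and 0.0375 in controls. That of the G2 and mitosis genes was 0.141, 0.207 and 0.173 in knockouts and -0.00744, -0.0127 and 0.0296 in controls. Knockout 2 had the lowest depth, and the part of depth in these values was not tested. Scaled to the same sum, which moved the median of all genes to -0.060, 35 of the 40 and 38 of the 43 stayed positive, with medians of 0.086 and 0.096. Of 21 genes of G1 and E2F control, Cdk4, a kinase of the G1 phase, rose to 17.2, 16.4 and 17.6 FPKM in knockouts, against 13.2, 13.4 and 13.9 FPKM in controls (log2 change 0.31, SE 0.0445, adjusted p = 0.0386). It was the 1 called of the 21, against 0.201% of all tested genes called higher. It was called in 0 of 6 left-out fits (adjusted p 0.0918 to 0.194). Cdk4 was not called when scaled to the same sum (0.233) or by median of ratios (0.0612), but was with quantile normalization (0.0414). The inhibitor gene Cdkn1b (log2 change -0.0943, adjusted p = 0.615) and Ccnd3, the cyclin D3 gene (log2 change -0.18, adjusted p = 0.157), were not called.

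Ribosome biogenesis genes leaned the same way, with 25 of 28 positive, a median of 0.12 and 0 called. Srm, the spermidine synthase gene, was at 5.34, 5.38 and 5.13 FPKM in knockouts, against 3.86, 3.66 and 4.14 FPKM in controls (log2 change 0.36, adjusted p = 0.0536). Npm1, nucleophosmin of the nucleolus, was at 78.6, 71.8 and 73.6 FPKM in knockouts, against 62.4, 59 and 62.8 FPKM in controls (log2 change 0.28, adjusted p = 0.0806). Scaled to the same sum, 20 of 28 stayed positive. In contrast, the mitochondrially encoded genes differed between knockout libraries more than between groups, with medians of 0.319, -0.0785 and -0.415 in knockouts 1, 2 and 3 relative to the control mean, and 0 of 12 called. Of 14 tested Notch receptor and target genes 0 were called. Il2ra, the CD25 gene of earlier thymocytes, had 5.38, 3.97 and 4.46 FPKM in knockouts, against 3.12, 2.52 and 2.07 FPKM in controls (log2 change 0.65, adjusted p = 0.112) with no overlap. Notch1 had 12.4, 11.3 and 12.3 FPKM in knockouts, against 12.1, 10.6 and 10.6 FPKM in controls (log2 change 0.11, adjusted p = 0.556). None of 17 early progenitor genes reached the minimum for testing. Called counts were also 0 among 28 cytokine receptor and JAK-STAT, 17 interferon-stimulated, 12 BCL2 family, 14 p53 target, 26 oxidative phosphorylation, 18 T cell leukaemia, and 15 immediate early and heat shock genes. Of the markers of gamma-delta and of innate-like T cells 2 and 4 were tested, and 0 were called.

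**Figure D4:**
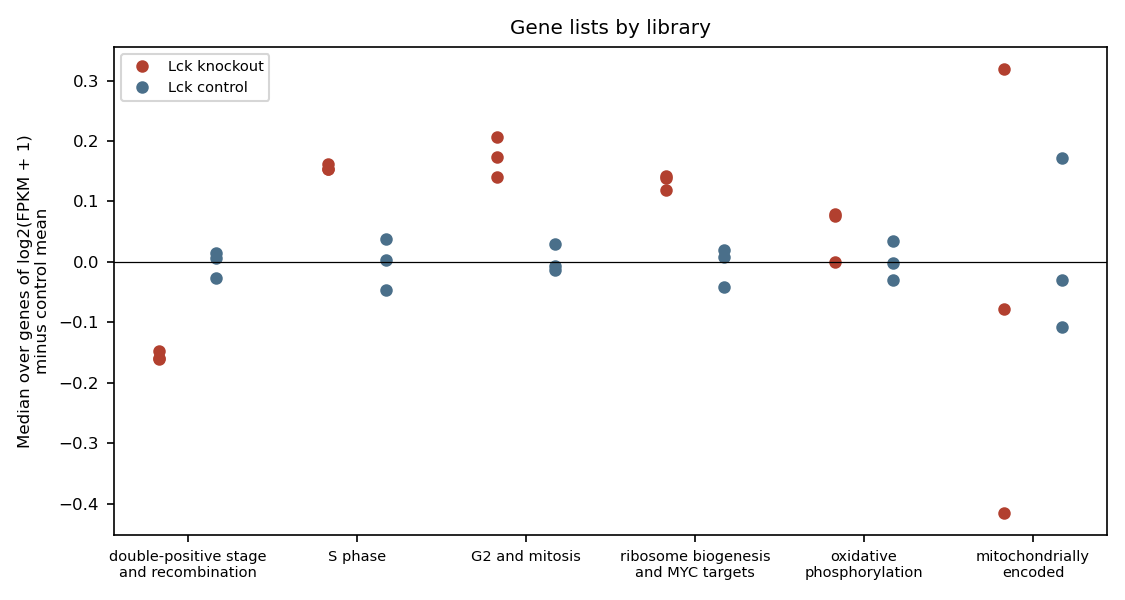
Median over the tested genes of each list of log2(FPKM + 1) minus the control mean (vertical), 1 point per library, Lck knockouts in red on the left and controls in blue on the right of each list. The 3 knockouts lie above the controls for S phase, G2 and mitosis, and ribosome biogenesis, lie below them for the double-positive stage, and scatter widely for mitochondrially encoded genes.

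The deletion by Vav-Cre at the same age gave a second measure of these genes, in libraries that share no control with the Lck groups. Of the 88 called falls 84 were also negative under Vav, and all 22 called rises were also positive. The share of all tested genes with the same sign under both was not computed, so these counts are not used as support. They include Tcf3, the gene targeted under both drivers. They also include the 9 falls and 1 rise that reached 1 FPKM in 1 Lck group only. The Vav change was the larger one for 60 falls and 17 rises, with medians of -0.82 and 0.60. To ask where the effects differ, the Lck effect minus the Vav effect was tested as an interaction over the 12 libraries, and 348 of 10541 genes, or 3.3%, were called, with 174 in each direction. Among the Lck calls, 13 of 85 tested falls and 4 of 22 rises had a called difference.

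For 8 of those falls the Lck change was the smaller. Dhrs3 had log2 changes of -0.83 under Lck and -2.58 under Vav, where it was at 1.904 ± 1.01 FPKM in Vav knockouts, against 15.6 ± 1.26 FPKM in their controls (SD, n = 3 each; difference 1.75, SE 0.2997, adjusted p = 0.0114). Adgrg1 had changes of -0.80 and -1.67 (difference 0.86, SE 0.106, adjusted p = 0.002297). Xbp1 had changes of -0.70 and -1.23 (difference 0.53, SE 0.0788, adjusted p = 0.00618). Plxnd1 had changes of -0.57 and -1.26 (difference 0.70, SE 0.134, adjusted p = 0.0192). Arl5c, Syk, Kcnh2 and Diexf were the other 4. The 4 rises with a called difference, among them Itgb7, Sh3rf1 and Tagln2, were also smaller under Lck. Itgb7 rose by 0.54 under Lck, while its change was 2.66 under Vav, at 29.5 ± 4.08 FPKM in Vav knockouts, against 3.81 ± 0.531 FPKM in their controls (SD, n = 3 each; difference -2.12, SE 0.159, adjusted p = 8.41e-05).

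For 5 falls the Lck change was the more negative: Rdh10, Wnt8b, Sema7a, the predicted gene Gm3086 and Mir7211, the last tested only through the Lck controls, of which all but Gm3086 were opposite in sign under Vav. Rdh10 had log2 changes of -0.98 under Lck and 0.33 under Vav, at 31.05 ± 0.776 FPKM in Vav knockouts, against 24.5 ± 1.92 FPKM in their controls (SD, n = 3 each; difference -1.31, SE 0.173, adjusted p = 0.00309). Wnt8b had changes of -0.92 and 0.37 (difference -1.29, SE 0.207, adjusted p = 0.00835). Sema7a had changes of -0.56 and 0.31 (difference -0.87, SE 0.194, adjusted p = 0.03801). For both genes the Vav groups overlapped, and the Vav change alone was not tested. Wnt8b ranged from 5.823 to 6.905 FPKM in Vav knockouts and from 3.731 to 5.895 FPKM in their controls. Sema7a ranged from 14.8 to 22.6 FPKM and from 12.87 to 16.41 FPKM. Control means also differed, at 7.34 and 19.5 FPKM in Lck controls, against 4.63 and 14.1 FPKM in Vav controls. Tcf3 and Epha2 had no called difference, with changes of -1.93 and -2.21 under Lck and of -1.77 and -2.53 under Vav.

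**Figure D5:**
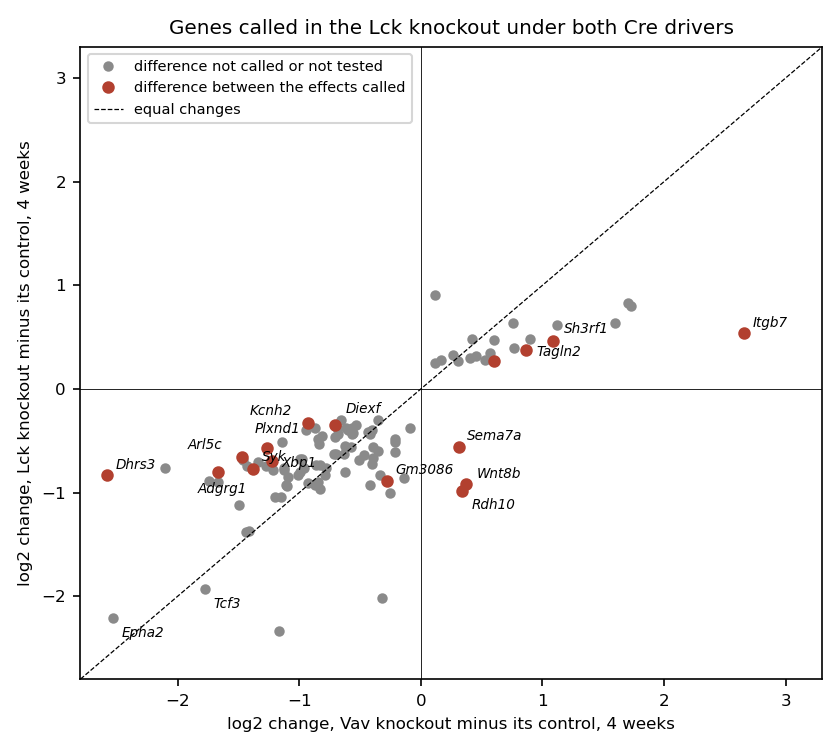
Change of the called Lck genes under Lck-Cre (vertical, log2 of FPKM + 1, knockout minus control) against their change under Vav-Cre at 4 weeks (horizontal, same scale), with 109 of the 110 drawn because Mir7211 is listed at 0 in all Lck knockouts. Red points have a called difference between the effects, the dashed line marks equal changes, and most points lie nearer 0 on the vertical than on the horizontal axis.

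Levels across the 7 groups of the series place the Lck knockout beside the others as a description, since the 3 tables may be scaled apart. Epha2 averaged 2.48 ± 0.294 FPKM in Lck knockouts, 2.299 ± 1.201 FPKM in Vav knockouts at 4 weeks, 5.12 ± 3.02 FPKM in Vav knockouts at 8 weeks and 4.97 ± 4.23 FPKM in transplanted Vav knockouts (SD, n = 3, 3, 3 and 4). The 3 control groups averaged between 15.1 and 18.1 FPKM, and the knockout groups lie within their spread of one another. Plxnd1 did not have that pattern: it averaged 118 ± 2.47 FPKM in Lck knockouts, 69.1 ± 11.9 FPKM in Vav knockouts at 4 weeks, 15.2 ± 6.07 FPKM in those at 8 weeks and 30.4 ± 23.4 FPKM in transplanted ones. The 3 control groups averaged 166, 174 and 204 FPKM. The Lck knockouts were thus the highest of the knockout groups, and the 2 groups at 8 weeks overlapped. Smoc1 likewise averaged 2.98 ± 0.908 FPKM in Lck knockouts, 1.52 ± 0.538 FPKM in Vav knockouts at 4 weeks, 0.753 ± 1.14 FPKM in those at 8 weeks and 0.07495 ± 0.104 FPKM in transplanted ones. Its control groups averaged 5.68 to 10.7 FPKM. Slc5a9 averaged 6.66 ± 1.17 FPKM in Lck knockouts and between 3.03 and 3.86 FPKM in the other knockout groups, against 12.2 to 18.8 FPKM in controls. Id3 averaged 15.5 ± 0.913 FPKM in Lck knockouts and 13.4 ± 2.13 FPKM in Vav knockouts of that age, but 22.4 ± 9.54 FPKM in those at 8 weeks. The 8-week libraries were scattered, at 31.75, 22.64 and 12.67 FPKM. Control groups averaged 21.2 to 24.5 FPKM, with single control libraries from 20.68 to 27.92 FPKM. Reep1 and Cyth4 were lowest of the knockout groups in the Lck libraries, at 6.92 and 5.03 FPKM, against averages of 14.3 and 11.02 FPKM in Vav knockouts at 4 weeks and 21.6 and 33.2 FPKM at 8 weeks.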

How the data were processed

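Total RNA of sorted thymocytes was purified with an RNeasy mini kit, and NuGEN's Ovation Ultralow kit was used for the libraries, per the labels. As deposited by the authors, the values were FPKM (fragments per kilobase of gene and per 1e6 fragments) per gene for 43430 Ensembl genes. Trimmomatic 0.33, STAR, HTSeq 0.6.1, DESeq2 and mm10 are named in the submitters' processing notes, with no role or order. Gene lengths, annotation and strand setting are not given in the sources used here. Depth was inferred from the smallest values, and counts could not be recovered, so no count model was run. Symbols and positions came from the GENCODE annotation of mm10, which held 42546 of the identifiers, and promoter and microRNA sequences from RefSeq on GRCm38.p6. All 22 columns matched a sample by name, and 0 pairs of libraries were identical.

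Genes at 1 FPKM or more in at least 3 of the 6 libraries were fitted as log2(FPKM + 1) with limma 3.58.1 with trend in R 4.3.3. Changes on this scale understate those of low genes. Of the tested genes 325 reached the minimum in exactly 3 libraries, and 398 that reached it in exactly 2 were not tested. The difference of the Lck and Vav effects was an interaction over 12 libraries, for genes that met the minimum in both tables, and there an offset between tables cancels. The model was tested on simulated data. Summaries used Python 3.11.15, pandas 2.3.3 and numpy 2.4.6.

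The samples, gene lists and tests were chosen with earlier results of these data known, and 6 further gene families were chosen after the called genes were seen, so neither supports a direction. Named were Tcf3, the E protein and Id genes, the 16 largest falls and 14 largest rises among called genes without overlap, leaving out predicted genes and receptor segments, and up to 4 called members of each list. Of the interaction, named genes that passed it and the 5 largest each way were taken. Other names were chosen after their values were seen. Some genes that these rules take are not reported here. The alternatives tried were no filter, a filter on a mean of 5 FPKM, a pseudocount of 0.1, 3 other scalings, robust variances, no trend, array weights, a replicate block, a term for sex, and leaving out each library.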

Additional observations from a re-analysis of the deposited data

Results flagged for a closer look

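Of 14 genes whose levels were followed across groups, 4 had 1 library apart from the others in the transplanted Vav knockouts, the one group large enough for the gap to be read. The highest transplanted library had 2.317 FPKM of Tcf3, while the others lay between 1.21 and 1.31 FPKM, 0.2283 FPKM of Smoc1, with the others at or under 0.03597 FPKM, and 68.38 FPKM of Igkc, with the others between 2.107 and 6.791 FPKM. Another transplanted library had 24 FPKM of Ptcra, while the others lay between 2.701 and 5.509 FPKM. Chance alone marks about 1 group in 20, and the genes share libraries.

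The remaining entries are genes whose change under Lck-Cre differed from that under Vav-Cre in the limma interaction, given as the Lck effect minus the Vav effect on the log2 scale. Among genes called in the Lck comparison the difference was -1.315 for Rdh10, -1.295 for Wnt8b, -0.8693 for Sema7a, -2.122 for Itgb7, -0.6249 for Sh3rf1, -0.4878 for Tagln2 and 0.6995 for Plxnd1. For Mir7211 the fitted difference was -3.323, a value that depends on the pseudocount because the gene was listed at 0 in every Lck knockout.

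Other genes with the largest differences had no call under Lck. Il2ra, the CD25 gene, differed by -2.298, with log2 change 0.65, adjusted p = 0.112 under Lck and a change of 2.95 under Vav. Foxb1, a forkhead factor gene, differed by -2.482, and Phlda1 by -2.03. Phlda1 had 3.48, 2.45 and 2.36 FPKM in knockouts, against 9.31, 6.81 and 5.73 FPKM in controls in the Lck groups (log2 change -1.13, adjusted p = 0.0622), without overlap, and had a log2 change of 0.90 under Vav. In the other direction, H1fx, a linker histone gene, differed by 2.67, Fgf13 by 2.218, Mir378b by 2.066, Cd79b by 2.035 and Laptm4b by 1.913. Fgf13 was at 3.03, 3.28 and 3.03 FPKM in knockouts, against 3.73, 3.52 and 3.23 FPKM in controls in the Lck groups (log2 change -0.13, adjusted p = 0.477) and had a log2 change of -2.34 under Vav.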

How the results depend on the processing

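With 3 libraries against 3, counts of calls moved with the setting while directions did not: every called gene kept its sign under every alternative that tested it. Against 22 higher and 88 lower genes in the Lck comparison, no filter gave totals of 7 higher and 56 lower, the lower ones holding 42 of the 88, scaling to the same sum 6 higher, median-of-ratios scaling 13 higher, no trend 14 higher, and a term for the sex of the library, which knockout replicate 3 alone carries, 1 higher and 25 lower. Leaving out 1 library at a time gave between 0 and 11 higher and between 2 and 72 lower genes. The difference of the Lck and Vav effects had 174 genes each way, against 71 higher and 102 lower with a mean of 5 FPKM, 397 and 355 with array weights, and between 53 and 265 higher and between 75 and 224 lower with 1 library left out. Whether the replicate numbers pair the samples is not known. Deviations of same-numbered libraries correlated at 0.181, -0.0139 and 0.0304, and those of differently numbered ones at between -0.146 and 0.101. So few libraries cannot settle the question. A replicate block gave 0 higher and 4 lower genes in the Lck comparison, and 73 higher and 75 lower for the difference. The cause of these moves was not tested, beyond there being fewer libraries in the left-out fits. FPKM values carry no counts, so knockout replicate 2, with the lowest inferred depth, has the least certain low values.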
